A study of Mus musculus with 6 samples.

Results

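Canonical Wnt target genes were compared between GFP-sorted pancreas cells of mice with and without p120 catenin in a mouse model of preinvasive pancreatic cancer. The list held 10 genes (Axin2, Nkd1, Notum, Rnf43, Znrf3, Apcdd1, Lgr5, Lef1, Tcf7 and Sp5). A gene was used where an array row named it alone, and of several rows the one brightest on average was taken. Of the 10, 9 were measured in this way, out of 20259 genes in all, and Tcf7 was not measured here. The first group was 3 arrays with the genotype KCiMist1G; p120f/f, which the labels call p120 knockout. The second was 3 arrays with the genotype KCiMist1G; p120wt/wt, which the labels call wild-type. Both groups carried KCiMist1G, received tamoxifen at an age of 7 to 9 weeks to switch on Cre recombination, and were digested and sorted for GFP 2 weeks later. The labels do not spell out the alleles behind KCiMist1G. Mist1 is a transcription factor gene of acinar cells, the enzyme-secreting cells of the pancreas. Whether a biological replicate was a single animal or pooled animals is not stated, and the p-values rest on the spread between replicates as numbered. Values were log2 expression after RMA, a method that corrects background, normalizes arrays and summarises probes.

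In canonical Wnt signalling, secreted Wnt proteins bind Frizzled receptors and the co-receptors Lrp5 or Lrp6, and this stops a complex of Axin, Apc and Gsk3b from marking beta-catenin for destruction. Beta-catenin then enters the nucleus and switches on genes bound by TCF/LEF factors, among them several inhibitors that dampen the pathway. Beta-catenin also sits in adherens junctions, bound to the tail of classical cadherins, which p120 catenin holds at the membrane. The comparison asks whether a change at the junction is accompanied by a change in beta-catenin target transcripts.

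Ctnnd1, the gene for p120 catenin, did not show its own loss. Its log2 values were 5.61, 6.61 and 6.38 on the arrays labelled knockout, against 5.87, 6.81 and 6.44 on the wild-type arrays. The difference was -0.17 (SE 0.32, limma adjusted p = 0.922), and the groups overlapped. It was 0.12 without knockout array 1. Probes outside the deleted stretch cannot check the deletion, and where the Ctnnd1 probes lie was not checked. The reason for the missing loss was not tested, and all directions below follow the labels. The labelled knockout arrays split on the first principal component (51.7% of the variance), with array 1 at -38.1 and arrays 2 and 3 at 28.4 and 37.1. The wild-type arrays lay between, at -14.9 to -4.16. The component does not tell which knockout arrays are the unusual ones. Because of this split, differences of the Wnt targets are given with and without knockout array 1. Xist, which is transcribed from the inactive X chromosome of females, was between 9.97 and 11.4 on knockout array 3 and wild-type arrays 1 and 2, and between 3.56 and 3.98 on the other 3 arrays. Its part in the differences was not tested. The acinar marker Cela1, an elastase gene, lay between 13.59 and 13.85 on the 6 arrays. The acinar transcription factor gene Bhlha15, which encodes Mist1 and was chosen with its values in view, was at 8.61 on knockout array 1, against 9.60 to 10.06 on the other 5 arrays.

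No Wnt target gene passed the test between the groups. With limma, 0 of the 9 measured members passed an adjusted p of 0.05, where the share over all genes was 0%. At an unadjusted limma p under 0.05, there were also 0 members, against 3.49% of all genes. The 2 groups of arrays overlapped for all 9 members, where 8.69% of all genes had groups that did not overlap. By the exact two-sided permutation test, which cannot go below 0.1 with 3 arrays against 3, the members' p-values ran from 0.2 to 1.0. The differences, knockout minus wild type, ran from -0.31 for Lef1 to 0.21 for Rnf43 and Sp5, with 6 of 9 above 0, against 61.7% of all genes, and 3 of 9 below 0, against 38.3%. The members' median difference was 0.074, and that of all genes was 0.055. The plot of differences shows how wide the 95% confidence intervals are beside these sizes.

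**Figure D1:**
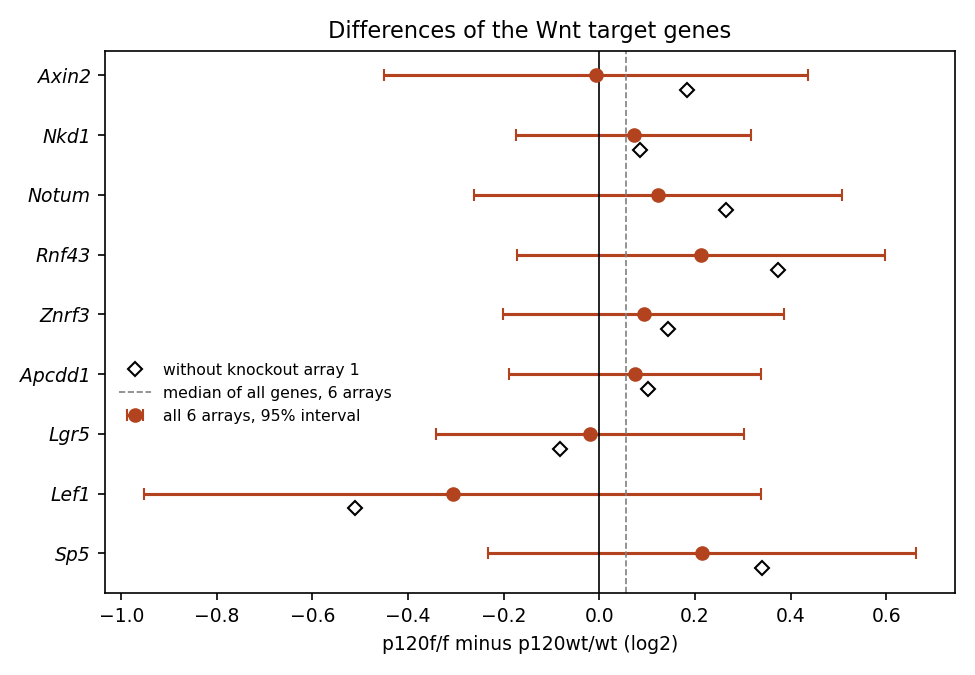
Difference of each Wnt target gene on the log2 scale, p120f/f minus p120wt/wt: filled points and bars give limma's estimate and 95% confidence interval over the 6 arrays, and open diamonds give the estimate without knockout array 1. The 9 intervals all include 0, from the narrow interval of Nkd1 (-0.18 to 0.32) to the wide interval of Lef1 (-0.95 to 0.34), and the dashed line marks the median of all genes (0.055).

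Axin2, a scaffold of the destruction complex and a feedback target of the pathway in many tissues, had log2 values of 5.49, 6.12 and 5.99 on the arrays labelled knockout, against 5.87, 5.72 and 6.04 on the wild-type arrays. Knockout array 1 was the lowest of the 6 and knockout array 2 the highest, so the wild-type values lay inside the knockout range. The group mean was 5.87 for knockout (SD 0.34, n = 3) and 5.87 for wild type (SD 0.16, n = 3), a difference of -0.0076 (SE 0.19, limma adjusted p = 0.995). The 95% interval ran from -0.45 to 0.44, so changes of either sign within those bounds remain compatible with these values. The interval is not a limit of detection. Without knockout array 1 the difference was 0.18 (SE 0.13, limma adjusted p = 0.357).

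Rnf43 and Znrf3 encode related membrane ubiquitin ligases that remove Frizzled receptors from the cell surface. Rnf43 measured 5.76, 6.17 and 6.31 on the arrays labelled knockout, against 5.77, 5.93 and 5.91 on the wild-type arrays. Knockout arrays 2 and 3 lay above every wild-type array, and knockout array 1 lay below them all. The difference was 0.21 (SE 0.16, limma adjusted p = 0.907). Without knockout array 1 it was 0.37 (SE 0.11), the smallest p among the members in that fit (unadjusted p = 0.0116, limma adjusted p = 0.0938). In that fit 29.3% of all genes had an unadjusted p under 0.05, and Rnf43 was the single member that did. With array weights, which put most weight on knockout array 2, the difference was 0.31 and Rnf43 passed (limma adjusted p = 0.0403), in a fit that called 4797 of the 20259 genes.

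Znrf3 measured 8.69, 8.75 and 8.93 on the arrays labelled knockout, against 8.60, 8.68 and 8.82 on the wild-type arrays. The arrays of the groups were interleaved. The difference was 0.092 (SE 0.13, limma adjusted p = 0.908). Znrf3 had a second row, with 6.13, 5.72 and 5.74 on the knockout arrays and 6.31, 5.85 and 6.09 on the wild-type arrays. That row differed by -0.22, opposite in sign to the row used, so the rows of Znrf3 disagreed on direction. Znrf3 was the single member with more than 1 row.

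The other inhibitors, Notum, Nkd1 and Apcdd1, gave small differences. Notum, an enzyme that removes the lipid from Wnt proteins and so inactivates them, had log2 values of 4.74, 5.19 and 5.16 on the arrays labelled knockout, against 5.07, 4.92 and 4.73 on the wild-type arrays. Both groups had an array near 4.74, and the difference was 0.12 (SE 0.16, limma adjusted p = 0.908). Nkd1, which binds Dishevelled and dampens the signal, measured 4.98, 5.01 and 5.03 on the knockout arrays, against 4.93, 4.99 and 4.90 on the wild-type arrays. Nkd1 had the tightest groups of the 9 members, with SDs of 0.023 in knockout and 0.043 in wild type, and a difference of 0.071 (SE 0.11, limma adjusted p = 0.91). The third of these inhibitors, Apcdd1, a membrane protein that binds Wnt and Lrp proteins, measured 4.37, 4.52 and 4.38 on the knockout arrays, against 4.40, 4.37 and 4.27 on the wild-type arrays. Its groups overlapped, with a difference of 0.074 (SE 0.11, limma adjusted p = 0.91). Without knockout array 1 the differences were 0.26 for Notum (SE 0.13, limma adjusted p = 0.211), 0.084 for Nkd1 and 0.10 for Apcdd1.

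Lgr5, a receptor for R-spondins and a stem cell marker of intestine and stomach, measured 4.55, 4.34 and 4.38 on the arrays labelled knockout, against 4.52, 4.57 and 4.24 on the wild-type arrays. The difference was -0.019 (SE 0.14, limma adjusted p = 0.98). Its sign depended on single arrays, since leaving out knockout array 1 gave -0.083 and leaving out wild-type array 2 gave 0.046. The means of Lgr5, Apcdd1, Notum, Nkd1 and Sp5 were below that of the median gene (5.43), a range in which RMA compresses differences, and the table gives no detection calls.

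**Figure D2:**
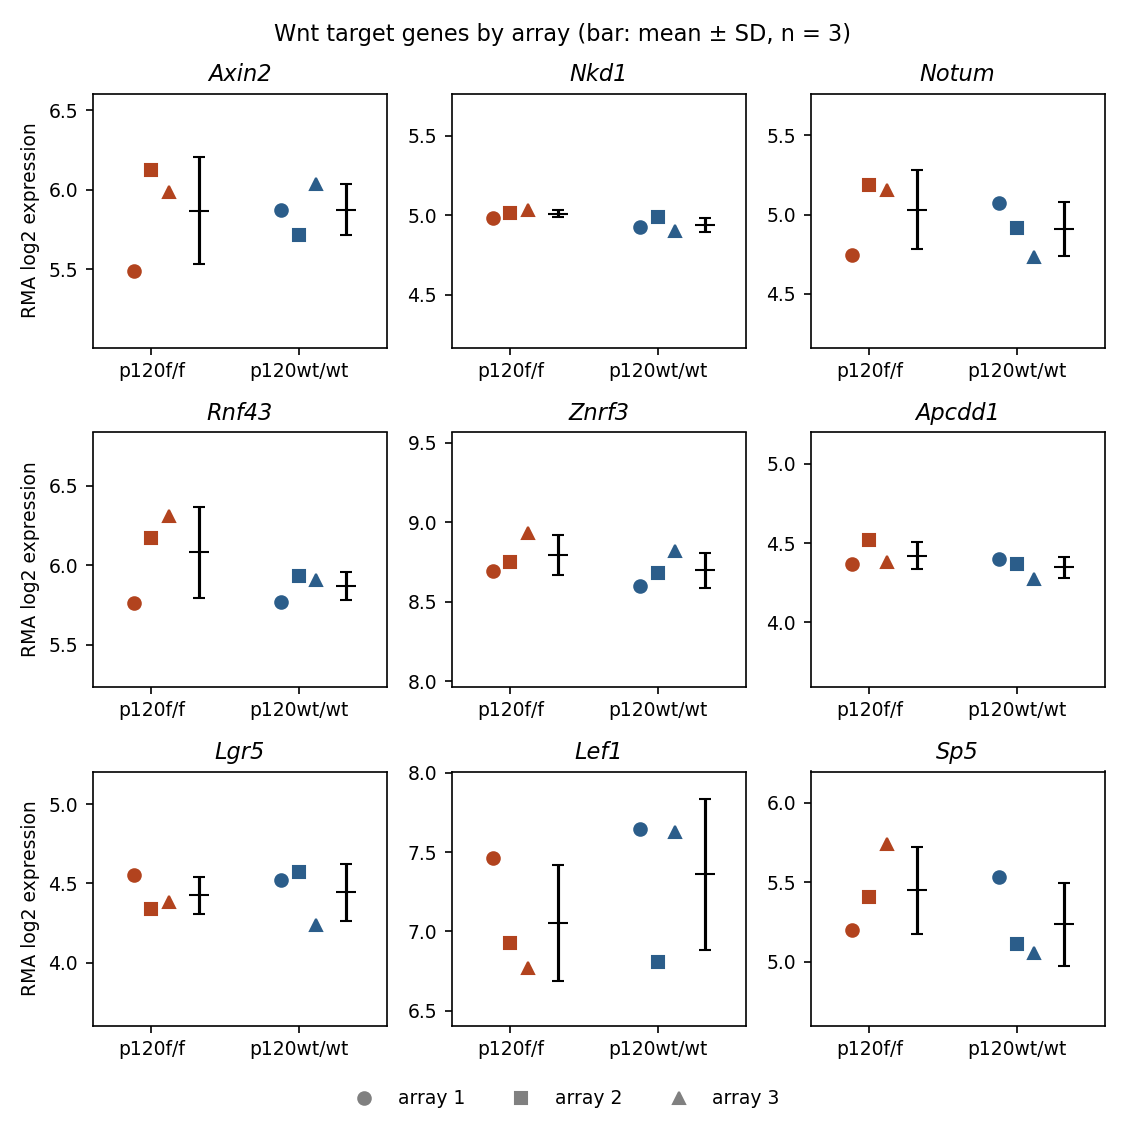
RMA log2 expression of the 9 measured Wnt target genes, with p120f/f arrays on the left of each panel and p120wt/wt arrays on the right. Symbols mark the array number within a group and bars give the mean ± SD (n = 3), and every panel spans the same log2 range. The groups overlap in all 9 panels, and the p120f/f array 1 (circle) is the lowest of its group for 7 of the 9 genes and the highest for the other 2, Lef1 and Lgr5.

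Sp5, a zinc finger transcription factor gene that is a direct target of beta-catenin in embryos, measured 5.20, 5.41 and 5.74 on the arrays labelled knockout, against 5.54, 5.11 and 5.05 on the wild-type arrays. Knockout array 3 was the highest of the 6, and wild-type array 1 was the second highest. The difference was 0.21 (SE 0.19, 95% interval -0.23 to 0.66, limma adjusted p = 0.907). Without knockout array 1 it was 0.34 (SE 0.18, limma adjusted p = 0.254).

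Promoter windows from RefSeq (build GRCm38.p6), running from 250 bases before to 50 bases after a transcript start, were searched for TCF/LEF motifs and for the motif of Kaiso, a repressor that p120 catenin binds. The motifs were CTTTGAT and CTTTGAA for TCF/LEF, which share their first 6 letters, and TCCTGCNA for Kaiso, each on both strands. Member windows on 1 chromosome were left out before the member counts, and whether they held a match is not reported here. The shares over all windows were taken before this step. The 11 windows kept belong to 6 of the 10 genes (Axin2, Lef1, Nkd1, Rnf43, Sp5 and Tcf7). The other genes have no window in the member counts. A TCF/LEF match was found in 1 of these 11 windows, that of Sp5, at 104 bases before the start. Either motif occurs in 8.65% of all 32851 windows. None of the 11 windows matched the Kaiso motif, which occurs in 4.96% of all windows. A match is a description of letters and not a site of binding. The 250 bases before the start are shown for Sp5, the member with the match, and for Axin2, the feedback target described first, with the TCF/LEF match in capitals. The Sp5 stretch is chr2:70474673-70474922 and the Axin2 stretch is chr11:108920099-108920348, both on the plus strand, 5′ to 3′.
Sp5: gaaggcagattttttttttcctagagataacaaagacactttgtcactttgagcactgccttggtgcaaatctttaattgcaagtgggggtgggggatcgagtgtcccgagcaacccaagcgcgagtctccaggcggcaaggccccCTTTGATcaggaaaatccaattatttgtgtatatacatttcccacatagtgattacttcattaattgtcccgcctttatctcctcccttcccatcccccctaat
Axin2: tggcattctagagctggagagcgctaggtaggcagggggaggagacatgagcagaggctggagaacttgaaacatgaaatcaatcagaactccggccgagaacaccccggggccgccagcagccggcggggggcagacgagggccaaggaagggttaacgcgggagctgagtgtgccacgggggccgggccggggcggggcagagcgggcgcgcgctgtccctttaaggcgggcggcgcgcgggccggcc

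Lef1, a TCF/LEF factor that binds beta-catenin and is also a gene of T cells, had the largest difference of the 9 members. Its log2 values were 7.46, 6.93 and 6.77 on the arrays labelled knockout, against 7.65, 6.81 and 7.62 on the wild-type arrays. Knockout array 1 and wild-type arrays 1 and 3 were high, and knockout arrays 2 and 3 and wild-type array 2 were low. The group mean was 7.05 for knockout (SD 0.36, n = 3) and 7.36 for wild type (SD 0.48, n = 3). The difference of -0.31 (SE 0.28, limma adjusted p = 0.907) was smaller than the SD within either group. Leaving out knockout array 1 gave -0.51 (SE 0.26, limma adjusted p = 0.24). Leaving out wild-type array 2 gave -0.58, where the unadjusted limma p was 0.041 and the limma adjusted p was 0.981. In that fit 2.36% of all genes had an unadjusted p under 0.05. Leaving out any other array gave a smaller difference, from -0.24 (knockout array 2) to -0.16 (wild-type array 1).

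The mean of the T and NK cell markers moved with Lef1 from array to array, though not every marker did. The mean over 15 of 19 listed T and NK cell markers that were measured was 7.18, 6.63 and 6.51 on the arrays labelled knockout, against 7.21, 6.88 and 7.29 on the wild-type arrays. In this list 13 of 15 markers had a difference below 0 and 2 above 0, with a median of -0.37 and 0 past the limma adjusted threshold. At an unadjusted p under 0.05 there were 3, all below 0 (1.19% of all genes), and for 2 the knockout arrays lay below all wild-type arrays (2.47% of all genes). Those 2 markers were thus low on knockout array 1, where Lef1 was high. All 15 of 15 were below 0 without knockout array 1, with a median of -0.56. The brightest were Il7r, the interleukin 7 receptor, at 8.46 to 9.40 in knockout and 9.10 to 9.67 in wild type, and Nkg7, a granule protein gene of cytotoxic lymphocytes, at 7.75 to 8.66 in knockout and 8.27 to 8.68 in wild type. The part of T cells in the difference of Lef1 was not tested, and in sorted bulk cells fewer cells of a type and less RNA per cell cannot be told apart.

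The genes with the profile most like that of Lef1 were Cd8a, Skap1 and Cd5. Likeness was the root mean square distance over the 6 arrays between log2 values centred on each gene's own mean, ranked over 9584 genes with a mean above the median gene, predicted genes (Gm numbers, Rik) left out. The distances were 0.065 for Cd8a, 0.076 for Skap1 and 0.091 for Cd5. Cd8a encodes the T cell co-receptor CD8 alpha, Skap1 a T cell adaptor protein, and Cd5 a surface receptor of T cells. The value of Cd8a was 7.73, 7.23 and 7.03 on the arrays labelled knockout, against 7.90, 7.25 and 7.90 on the wild-type arrays. These arrays share their RNA across all genes, so the distances are a description. Among the 8 cell type lists, the mean of the T and NK cell markers was nearest to Lef1 at a distance of 0.157, against 0.305 for B cell markers and 0.539 for acinar markers.

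**Figure D3:**
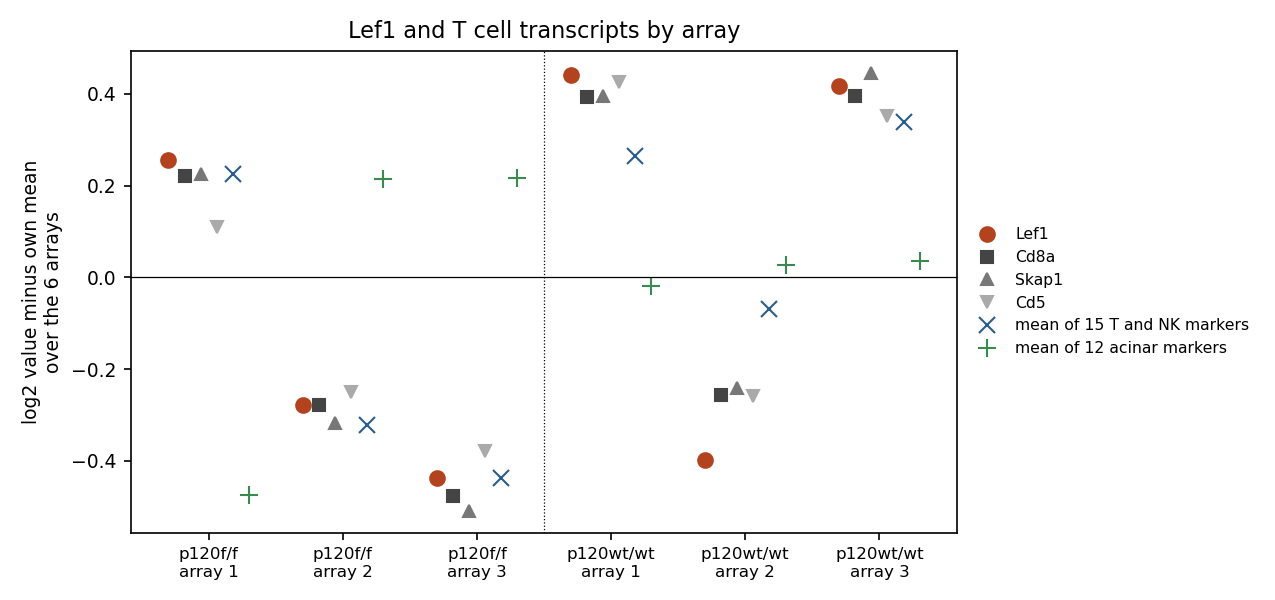
Log2 values of Lef1, its 3 most alike genes, and the means of the T and NK cell and acinar marker lists, each minus its own mean over the 6 arrays, with p120f/f arrays on the left and p120wt/wt arrays on the right. Lef1 and Cd8a are above their means on knockout array 1 and wild-type arrays 1 and 3 and below them on the other 3 arrays, while the acinar mean is lowest on knockout array 1.

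Sp5, which had the next widest range over the arrays after Lef1, was nearest to Ndufa1, Atp23 and Myoz3, at distances of 0.033, 0.04 and 0.041. Ndufa1 encodes a subunit of respiratory complex I. Of the 8 cell type lists, the acinar marker mean was nearest to Axin2 (distance 0.108), a pairing picked out after the values were seen. That mean was 10.65, 11.34 and 11.34 on the arrays labelled knockout, against 11.11, 11.16 and 11.16 on the wild-type arrays, over 12 of 17 listed markers, of which 4 had a difference above 0 and 8 below 0. The median of the list was -0.0096 with all 6 arrays, where that of all genes was 0.055. With knockout array 1 left out, 12 of 12 were above 0, with a median of 0.149. In that fit 13223 of 20259 genes were above 0, with a median of 0.112. The direction of the list thus turned with that array, in a fit where the median of all genes was higher too. Both Axin2 and the acinar mean were lowest on knockout array 1, and the part of acinar RNA in the values of Axin2 was not tested.

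The rest of the Wnt pathway was read from lists by role, 115 genes in all, of which 112 were measured. With limma 0 of the 112 passed the adjusted threshold, 2 were higher and 1 was lower at an unadjusted p under 0.05 (2.31% and 1.19% of all genes in each direction), and their median difference was 0.077. For 4 of these genes all knockout arrays lay above all wild-type arrays, and for 2 they lay below (6.21% and 2.47% of all genes). Ctnnb1, the gene for beta-catenin itself, measured 8.46, 8.52 and 8.61 on the arrays labelled knockout, against 8.30, 8.59 and 8.56 on the wild-type arrays. Its groups overlapped and its difference was 0.047 (SE 0.13, 95% interval -0.25 to 0.345).

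Among 21 ligands and secretion genes, 17 had a difference above 0 and 4 below 0, with a median of 0.097. Wnt9b measured 6.17, 6.28 and 6.16 on the arrays labelled knockout, against 5.97, 5.79 and 5.98 on the wild-type arrays, and the groups did not overlap. Its difference was 0.29 (SE 0.12, limma adjusted p = 0.907). Among 21 receptor and R-spondin genes, 15 had a difference above 0 and 6 below 0. Fzd6, a Frizzled receptor, measured 5.75, 6.35 and 6.15 on the knockout arrays, against 5.42, 5.78 and 5.48 on the wild-type arrays. Knockout array 1 lay just under wild-type array 2, so the groups overlapped, and the difference was 0.52 (SE 0.19, limma adjusted p = 0.907). Ror2, a receptor for non-canonical Wnt signals, differed by -0.33 and Rspo4 by 0.35, neither past the threshold. The 11 measured secreted antagonists had a median of 0.147, with Wif1 at 0.22 and Sfrp2 at -0.28. The 15 measured genes of the destruction complex and Dishevelled had a median of -0.024, with Tnks, which promotes the breakdown of Axin, at -0.25. The 16 genes of the nuclear complex had a median of 0.047, with the corepressor Tle4 at -0.38 (SE 0.28). Without knockout array 1 Tle4 was -0.70 (SE 0.15, limma adjusted p = 0.0643), in a fit where 29.3% of all genes had an unadjusted p under 0.05. The medians in that fit were 0.289 for receptors and R-spondins, 0.242 for antagonists and 0.153 for ligands. They were -0.142 for the destruction complex and 0.078 for the nuclear complex, and that of all genes was 0.112.

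Of 28 further reported Wnt targets that were measured, 16 had a difference above 0 and 12 below 0, with a median of 0.097. Prox1, a homeobox transcription factor gene, had log2 values of 4.57, 6.47 and 6.77 on the arrays labelled knockout, against 7.02, 8.05 and 7.43 on the wild-type arrays. The groups did not overlap, and knockout array 1 was the lowest of the 6 by a wide margin. The difference was -1.56 (SE 0.56, limma adjusted p = 0.907), and -0.88 without knockout array 1 (SE 0.29, limma adjusted p = 0.12). Tnfrsf19 differed by -0.44 and Ccn5 by 0.26, with no overlap for Ccn5. Cd44, an adhesion receptor that leukocytes also carry, measured 8.90, 6.81 and 7.04 on the knockout arrays, against 8.17, 8.44 and 7.79 on the wild-type arrays, and had a difference of -0.55 (SE 0.52). Its difference without knockout array 1 was -1.21 (SE 0.20, limma adjusted p = 0.0542), in a fit where 29.3% of all genes had an unadjusted p under 0.05.

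**Figure D4:**
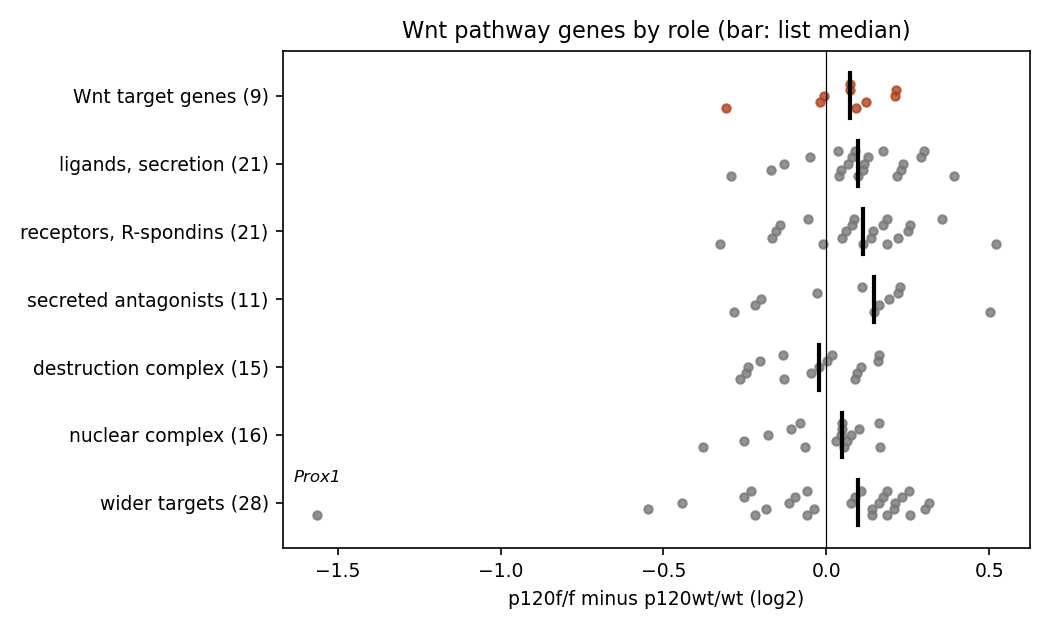
Differences on the log2 scale, p120f/f minus p120wt/wt, of the 9 measured Wnt target genes and of the other pathway genes by role, with the number measured in brackets. Each point is 1 gene and black bars are list medians. The medians lie between -0.024 (destruction complex) and 0.147 (secreted antagonists), and Prox1 (-1.56) is the point farthest from 0.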

How the data were processed

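RNA from GFP-sorted pancreas cells was measured on 6 arrays. The values are log2 expression, in 1 table of 115830 rows deposited by the authors. RMA and Partek are named, without versions, in the submitters' processing notes. A genome build or annotation is not given in the sources used, and batches could not be tested because the table gives no scan date. Array medians over the genes ran from 5.37 to 5.50, so differences of that size between arrays are not removed. Rows were named from the platform annotation: 25539 had 1 symbol and gave 20259 genes, each represented by its row with the highest mean.

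The linear model (lmFit and eBayes without a block, limma 3.58.1, R 4.3.3) was fitted on all genes, and p-values were adjusted by Benjamini-Hochberg with a threshold of 0.05. The code of the fit was also run on simulated arrays with shifts larger than the difference of any member. That run checks the code and does not measure sensitivity to differences as small as those of the members. The members and gene lists were chosen with earlier results of these data known. Outside the members, pathway genes named are among the 3 smallest p-values or the highest mean of each list, markers among the 2 highest means, and the genes most alike were named for the 2 members of largest range over the arrays. Ctnnd1, Ctnnb1 and Xist were named as checks. The alternatives changed the normalization, the filter on dim genes, the row per gene, the variance model or the array weights, added a replicate block, or left out an array.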

Additional observations from a re-analysis of the deposited data

How the results depend on the processing

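With 3 arrays a group and no detection calls, how small a change of the Wnt targets could be detected was not tested. RMA compresses differences at low values, where Lgr5, Apcdd1, Notum, Nkd1 and Sp5 lie. The members passing limma's adjusted threshold numbered 0 under 15 of 16 alternatives, including the fit with a replicate block, which gave 0 as well (smallest adjusted p = 0.953). Same-numbered arrays of the groups did not deviate together across genes (r of 0.041, 0.138 and -0.153), so the replicate block rests on a shared number alone. With array weights it was 1, Rnf43 (0.31, adjusted p = 0.0403), in a fit that put a weight of 8.57 on knockout array 2 and called 4797 genes; the estimate of these weights stopped before it converged. The median difference was 0.159 with array weights, where that of all genes was 0.091. It was 0.042 to 0.143 when single arrays were left out, highest without knockout array 1, where that of all genes was 0.112. It was lowest after a further quantile normalization, at 0.011, where that of all genes was 0.028, and it was 0.045 with arrays shifted to 1 median. Members with a difference above 0 numbered 7 in each fit that left out an array, 5 after quantile normalization or with the mean of rows or the most variable row, and 2 of the 4 members above the median level under that filter, by construction. The sign turned for Axin2 with array weights (0.23) and, when arrays were left out, over a range of -0.137 to 0.183; for Lgr5 over a range of -0.122 to 0.046; for Apcdd1 after a further quantile normalization (-0.0082); and for Znrf3 with the mean of its rows (-0.065) or its most variable row (-0.22). The cause was not tested. The other members kept their sign under every alternative run.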

Other observations

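Marker lists of further pancreatic and blood cell types were compared in the same fit, knockout minus wild type, and 0 markers passed limma's adjusted threshold. At an unadjusted p under 0.05 there were 3 fibroblast and 2 islet markers, all below 0, and 0 in the other 4 lists, where the share over all genes was 1.19% below 0 and 2.31% above 0. Of 8 measured B cell markers 8 were below 0 (median -0.25), of 14 myeloid markers 12 were below 0 (median -0.34), and of 17 fibroblast markers 15 were below 0 (median -0.44). Of 14 endothelial markers 10 were above 0 (median 0.13), of 11 duct markers 7 were above 0 (median 0.072), and of 14 islet markers 8 were below 0 (median -0.09). Without knockout array 1 the medians were -0.66 for B cell, -0.90 for myeloid and -0.29 for fibroblast markers. They were 0.30 for endothelial, 0.28 for duct and 0.053 for islet markers, where that of all genes was 0.112. The islet median thus changed sign. In that fit 8 of 8 B cell markers had an unadjusted limma p under 0.05, as had 29.3% of all genes. The mean of the B cell markers was 8.98, 7.73 and 7.72 on the arrays labelled knockout, against 8.43, 8.29 and 8.55 on the wild-type arrays, so knockout array 1 was the highest of the 6. Among the genes of Kaiso-like proteins, Zbtb4 differed by 0.14 and Zbtb38 by -0.081, and Zbtb33, the gene for Kaiso, was not measured here.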
